A study of Mus musculus with 1 sample.

Results

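The 10 genes described here belong to the bone morphogenetic protein (BMP) pathway and to the ID family of transcriptional inhibitors that the pathway is known to induce. They were chosen by symbol out of 27998 genes listed, with earlier results of these data known. These members are the ligand gene Bmp4, the receptor genes Bmpr1a and Bmpr2, and the SMAD genes Smad1, Smad5 and Smad6. The others are the ID genes Id1, Id2, Id3 and Id4. All 10 were measured in 1 single-cell RNA library of wild-type C57BL/6 mice at postnatal day 8. Testis cells of 3 mice had been pooled before capture, after spermatogonia were enriched with THY1 magnetic beads and a small number of unselected testis cells were added back. A second library, from mice lacking Zscan2, was not analysed here, and no comparison between genotypes was made.

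BMP ligands bind a complex of type I and type II receptors, of which BMPR1A and BMPR2 are examples. The type I receptor phosphorylates SMAD1 and SMAD5, which enter the nucleus with SMAD4 and switch on target genes, while SMAD6 and SMAD7 hold the pathway back. Among the best known targets are the ID genes. ID proteins carry a helix-loop-helix domain without a DNA-binding region, pair with E proteins such as those encoded by Tcf3, Tcf4 and Tcf12, and keep them from DNA. In the testis Id4 is used as a marker of spermatogonial stem cells (SSCs), and BMP4 is known for its part in germ cell formation and spermatogonial differentiation.

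Of 970 barcodes, 919 were kept, with a median of 9214 unique molecular identifiers (UMIs, each counting 1 captured RNA molecule) and a range of 2655 to 44915. Clustering without the pathway genes gave 323 germ cells and 596 somatic cells, so that somatic cells were 64.9% of the kept cells of a library enriched for THY1. The germ cells were 113 SSC-like cells, 75 progenitor-like cells and 135 differentiating-like cells; SSC-like and progenitor-like cells together are called undifferentiated-like. The somatic cells were 255 Sertoli-like cells (the nurse cells of the tubule), 187 stromal-like cells (interstitial cells with collagen and Pdgfra UMIs), 93 peritubular myoid-like cells (the contractile cells around the tubule), 35 macrophage-like cells and a small cluster of 26 cells. That small cluster had T cell genes among those setting it apart but was mixed, with T cell markers summing to 210 UMIs and myoid markers to 465 UMIs, and its cells are taken apart further on. Clusters were named by marker lists, so high sums of a list in its own class were built in and do not test the names. In germ cells 6 germ cell markers summed to 1353 UMIs per 1000000 UMIs (CPM), against 31.7 CPM in somatic cells. The SSC list, from which Id4 had been left out, summed to 177 CPM in SSC-like cells. Progenitor-like cells had 63.6 CPM of this list, and differentiating-like cells had 7.11 CPM. The progenitor list set its class apart less. It summed to 737 CPM there, beside 509 CPM in Sertoli-like and 436 CPM in SSC-like cells.

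A level is the sum of a gene's UMIs over a class, scaled to 1000000 UMIs of that class. A UMI counts a molecule once whatever its length, so levels of different genes were set side by side without division by length, although capture at the 3′ end may differ between genes. With 1 library there are no replicates and no test was made. Every range in brackets is an exact 95% interval for counting error alone. Where no UMI was found, the level or share allowed is that of 3 counts. A gene was called higher or lower where 2 classes differed at least 2-fold with an interval that left out equal levels, among genes with at least 20 UMIs in the 2 classes together.

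The 4 ID genes lie on different chromosomes of GRCm38, Id1 on chromosome 2 at 152736251 to 152737410, Id2 on chromosome 12 at 25093799 to 25097140, Id3 on chromosome 4 at 136143497 to 136145755 and Id4 on chromosome 13 at 48261228 to 48266026. No other annotated gene overlapped Id1, Id2 or Id3, while Id4 overlapped 2 noncoding genes on the opposite strand. Their coding sequences are most alike over a stretch of 120 bases in exon 1. It is shown because the levels of the 4 genes are compared with one another, which requires that their reads can be told apart. The stretch spans codons 60 to 99 of Id1, 37 to 76 of Id2, 42 to 81 of Id3 and 66 to 105 of Id4, and capitals mark the 69 bases that all 4 genes share.
Id1 (chr2:152736518-152736637, plus strand): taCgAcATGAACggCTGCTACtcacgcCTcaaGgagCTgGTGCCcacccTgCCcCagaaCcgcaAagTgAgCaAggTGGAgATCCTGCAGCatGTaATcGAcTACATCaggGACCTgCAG
Id2 (chr12:25095783-25095902, minus strand): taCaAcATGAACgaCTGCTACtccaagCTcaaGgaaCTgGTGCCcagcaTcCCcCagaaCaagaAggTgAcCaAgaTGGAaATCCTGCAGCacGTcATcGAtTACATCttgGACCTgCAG
Id3 (chr4:136144002-136144121, plus strand): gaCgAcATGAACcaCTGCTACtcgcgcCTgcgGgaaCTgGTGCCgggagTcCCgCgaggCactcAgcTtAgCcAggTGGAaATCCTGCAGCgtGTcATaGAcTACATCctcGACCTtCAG
Id4 (chr13:48261693-48261812, plus strand): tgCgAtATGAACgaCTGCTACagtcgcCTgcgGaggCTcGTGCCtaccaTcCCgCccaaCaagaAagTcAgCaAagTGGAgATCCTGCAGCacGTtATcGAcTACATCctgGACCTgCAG

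Over these 120 bases Id1 and Id2 were the closest pair, with 81.7% of bases the same, and Id3 was 70.8% the same as Id1 and as Id4. Even so, the longest run of bases shared by any 2 of the 4 principal transcripts was 19 bases, between Id2 and Id3, so their transcripts are separable by sequence. The table of RefSeq promoters (GRCm38) held no entry for Id1. The 250 bases before the RefSeq start of Id4, the ID gene with the germ cell pattern described below, are printed here with the match to GGCGCC, a palindrome of the kind bound by BMP-activated SMADs, in capitals. They end 113 bases before the start of Id4 in the GENCODE annotation and lie opposite the same 2 noncoding genes.
Id4 promoter (chr13:48260866-48261115, plus strand): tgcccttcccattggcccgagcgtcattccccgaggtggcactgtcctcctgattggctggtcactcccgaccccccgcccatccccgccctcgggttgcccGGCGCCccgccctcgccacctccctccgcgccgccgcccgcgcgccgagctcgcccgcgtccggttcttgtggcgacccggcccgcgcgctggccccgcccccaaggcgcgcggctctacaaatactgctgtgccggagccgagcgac

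GGCGCC occurred in 9.59% of 32851 RefSeq promoter windows of this length, and the windows of Id4, Id2, Bmpr1a and Bmpr2 held 1 match each, as did 1 of 3 windows of Smad5; those of Id3, Bmp4, Smad1 and Smad6 held 0. The shorter SMAD-binding element GTCT, searched on both strands, occurred in 82.9% of windows and had 0 matches in that of Id4. The E-box CANNTG, the element bound by the E proteins that ID factors sequester, occurred in 66.2% of windows and also had 0 matches there. A match is a description of letters, and binding was not measured.

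Bmp4 encodes the ligand of the set. It was found in peritubular myoid-like cells at 33.0 CPM (95% interval 21.1 to 49.0; 24 UMIs in 21 of 93 cells) and in stromal-like cells at 10.3 CPM (5.99 to 16.5; 17 UMIs). No Bmp4 UMI was found in 255 Sertoli-like cells, whose count of 0 allows up to 1.31 CPM, nor in 35 macrophage-like cells, which allows up to 5.81 CPM. In germ cells Bmp4 stood at 2.35 CPM (1.25 to 4.01; 13 UMIs in 12 of 323 cells). The myoid-like level was 3.21-fold that of stromal-like cells, or 1.68 on the log2 scale (0.72 to 2.67). It was 25.2-fold the level that 3 counts would give in Sertoli-like cells. The other ligand detected at a level that could be compared was Bmp7, which stood at 25.7, 24.8 and 25.5 CPM over the stages from SSC-like to differentiating-like cells. Its somatic levels were 41.2 CPM in myoid-like, 16.3 CPM in stromal-like and 0.436 CPM (1 UMI) in Sertoli-like cells. Both ligand genes thus stood higher in myoid-like than in stromal-like cells, while the 13 Bmp4 UMIs of germ cells were too few to compare stages. Bmp2 gave 16 UMIs, all in stromal-like cells, and Bmp3, Bmp10, Gdf2, Gdf5, Gdf6 and Gdf7 gave none.

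Bmpr1a, which encodes a type I receptor, was found in every class but the macrophage-like cells. It stood at 65.8 CPM (55.7 to 77.1) in Sertoli-like cells, 49.4 CPM (34.6 to 68.4) in myoid-like cells, 41.0 CPM (33.5 to 49.8) in SSC-like cells, 33.9 CPM (25.6 to 44.0) in stromal-like cells, 27.8 CPM (19.6 to 38.1) in progenitor-like cells and 24.9 CPM (17.9 to 33.6) in differentiating-like cells. Sertoli-like and myoid-like cells did not differ beyond counting error (log2 0.41, -0.12 to 0.98), nor did myoid-like and stromal-like cells (0.55, -0.10 to 1.18) or progenitor-like and differentiating-like cells (0.16, -0.51 to 0.83). In 35 macrophage-like cells there were 0 UMIs, which allows a share of up to 8.57% of cells with a UMI, and the Sertoli-like level was at least 11.3-fold higher. Among germ cells Bmpr1a was 1.46-fold higher in undifferentiated-like than in differentiating-like cells (log2 0.55, 0.04 to 1.08), short of 2-fold. With 1 hemoglobin-rich barcode kept, the largest germ cell cluster went unnamed. Of the 137 named germ cells left, 56 were undifferentiated-like, against 188 with that barcode removed. The log2 ratio under these names was then -2.01, which does not set the same cells against each other.

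Bmpr2, the type II receptor gene, followed another order. It stood at 55.3 CPM (46.1 to 65.8) in Sertoli-like cells, 38.8 CPM (23.7 to 59.9) in macrophage-like cells, 31.6 CPM (20 to 47.4) in myoid-like cells and 18.7 CPM (12.7 to 26.6) in stromal-like cells. Neighbours in this somatic order did not differ beyond counting error, while Sertoli-like exceeded myoid-like cells (log2 0.81, 0.16 to 1.52). In germ cells it was lower, at 6.03 CPM (3.38 to 9.95) in SSC-like, 13.1 CPM (7.79 to 20.8) in progenitor-like and 7.70 CPM (4.10 to 13.2) in differentiating-like cells. Macrophage-like cells therefore held Bmpr2 without any Bmpr1a UMI, and germ cells held Bmpr1a at 32.8 CPM beside Bmpr2 at 8.30 CPM. Within the germ cells the progenitor-like level of Bmpr2 was 2.18-fold the SSC-like level on 18 and 15 UMIs, and the log2 difference of SSC-like from progenitor-like cells was -1.12 (-2.22 to -0.05).

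Smad1 and Smad5, which encode the receptor-activated SMADs, were spread differently over the somatic cells. Smad1 reached 56.3 CPM (40.4 to 76.4) in myoid-like and 28.4 CPM (20.9 to 37.8) in stromal-like cells but 3.48 CPM (1.5 to 6.87; 8 UMIs in 255 cells) in Sertoli-like cells. The Sertoli-like level of Smad1 was 16.2-fold below the myoid-like level. Smad5 stood at 34.0 CPM (26.9 to 42.4) in Sertoli-like, 22.4 CPM (15.8 to 30.8) in stromal-like and 22.0 CPM (12.6 to 35.7) in myoid-like cells. Sertoli-like cells were thus low in Smad1 beside the levels of both receptor genes given above. Their Smad5 was not called different from that of stromal-like cells, and its interval overlapped that of myoid-like cells. In germ cells Smad1 was 18.2 CPM in undifferentiated-like and 30.2 CPM in differentiating-like cells (log2 -0.73, -1.28 to -0.18). Smad5 was 18.2 and 21.9 CPM in the same cells (log2 -0.27, -0.87 to 0.34). Smad6, which encodes an inhibitory SMAD, gave 48 UMIs in all and between 3.02 and 6.03 CPM in every class except the small mixed cluster, where it was not found.

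**Figure D1:**
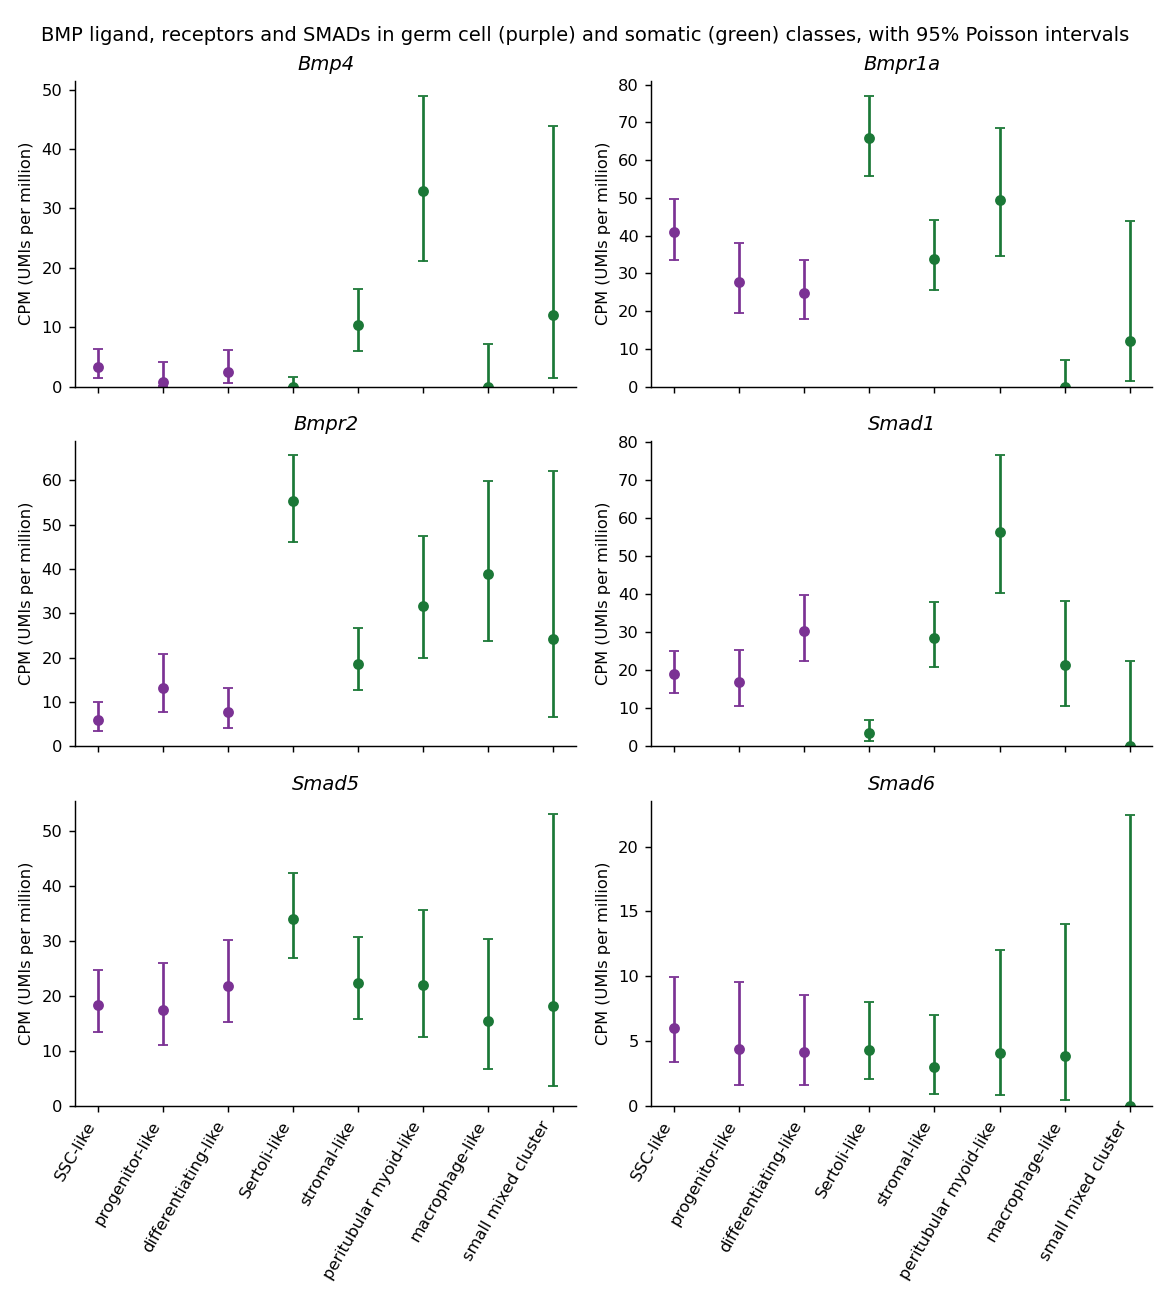
Levels of Bmp4, Bmpr1a, Bmpr2, Smad1, Smad5 and Smad6 in CPM (vertical axes, linear from 0) by cell class (horizontal axes); points are summed levels and bars exact 95% Poisson intervals. Bmp4 is highest in peritubular myoid-like cells at 33.0 CPM, and Smad1 is at 3.48 CPM in Sertoli-like cells, where Bmpr1a (65.8 CPM) and Bmpr2 (55.3 CPM) stand highest.

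Id1 was highest in stromal-like cells. Its level was 268 CPM (244 to 295) in stromal-like cells, 107 CPM (84.7 to 134) in myoid-like cells, 90.9 CPM (50.9 to 150) in the small mixed cluster and 37.0 CPM (29.6 to 45.8) in Sertoli-like cells. No UMI of Id1 was found in 35 macrophage-like cells, so that the stromal-like level was at least 46.2-fold higher. The myoid-like cells and the small cluster did not differ beyond counting error (log2 0.24, -0.57 to 1.14), and the other neighbours among these somatic classes did. In the small cluster, however, 15 Id1 UMIs fell in 4 of 26 cells, 10 of them in 1 cell. Its level and its step over Sertoli-like cells thus rest largely on that cell, which the intervals do not take into account. Each cell was also thinned to 5000 UMIs, and cells with fewer were left out. After thinning, 56.1% of stromal-like cells had an Id1 UMI, against 27.0% of myoid-like, 14.5% of Sertoli-like and 2.16% of germ cells. Without thinning the shares were 69.5%, 40.9%, 22.0% and 7.74%.

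Id2 had a broader somatic pattern. It stood at 630 CPM (515 to 764) in the small mixed cluster, 241 CPM (218 to 265) in stromal-like cells, 115 CPM (101 to 129) in Sertoli-like cells, 69.8 CPM (48.9 to 96.6) in macrophage-like cells and 34.3 CPM (22.2 to 50.7) in myoid-like cells. Every step in this order exceeded counting error, the smallest being that from Sertoli-like to macrophage-like cells (1.64-fold, log2 0.72, 0.21 to 1.26). Id2 and Id1 thus stood in opposite orders in Sertoli-like and myoid-like cells: Id2 was 3.34-fold higher in Sertoli-like cells, and Id1 was 2.89-fold higher in myoid-like cells. In the thinned cells 48.6% of stromal-like, 40% of Sertoli-like, 31.4% of macrophage-like, 18.0% of myoid-like and 2.88% of germ cells had an Id2 UMI.

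Id3 gave 1638 UMIs in kept cells, against 849 of Id2, 651 of Id1 and 72 of Id4. Its level was 553 CPM (518 to 590) in stromal-like cells, 503 CPM (401 to 623) in the small mixed cluster, 301 CPM (262 to 343) in myoid-like cells and 151 CPM (136 to 168) in Sertoli-like cells. Macrophage-like cells had 3 UMIs of Id3, or 5.81 CPM (1.2 to 17), and the stromal-like level was 95.2-fold higher with a log2 interval of 5.02 to 8.85. The stromal-like cells and the small cluster did not differ beyond counting error (log2 0.14, -0.19 to 0.48). Thinned shares of cells with an Id3 UMI were 70.5% of stromal-like, 57.3% of myoid-like, 44.3% of Sertoli-like and 5.40% of germ cells.

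Id4 was the reverse of the other ID genes. It stood at 21.3 CPM (16 to 27.9; 53 UMIs in 36 of 113 cells) in SSC-like cells, 11.0 CPM (6.13 to 18.1; 15 UMIs in 14 of 75 cells) in progenitor-like cells and 0.593 CPM (0.0150 to 3.30; 1 UMI in 135 cells) in differentiating-like cells. Among 596 somatic cells there were 3 Id4 UMIs, 2 in myoid-like and 1 in Sertoli-like cells, and none in 187 stromal-like cells, which allows up to 1.81 CPM. SSC-like cells exceeded progenitor-like cells by 1.95-fold (log2 0.96, 0.11 to 1.89), just short of 2-fold, and progenitor-like cells exceeded differentiating-like cells by 18.5-fold (log2 4.21, 1.51 to 9.60). The thinned share of cells with an Id4 UMI was 6.25% in SSC-like, 2.94% in progenitor-like, 1.02% in differentiating-like and 0.365% in somatic cells, against 31.9%, 18.7%, 0.741% and 0.503% without thinning. Because SSC-like cells had a median of 22353 UMIs and differentiating-like cells of 10878, the unthinned shares are not at equal depth. Thinning left out 37 of 135 differentiating-like, 7 of 75 progenitor-like and 1 of 113 SSC-like cells. Thinned and unthinned shares thus do not count the same cells.

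**Figure D2:**
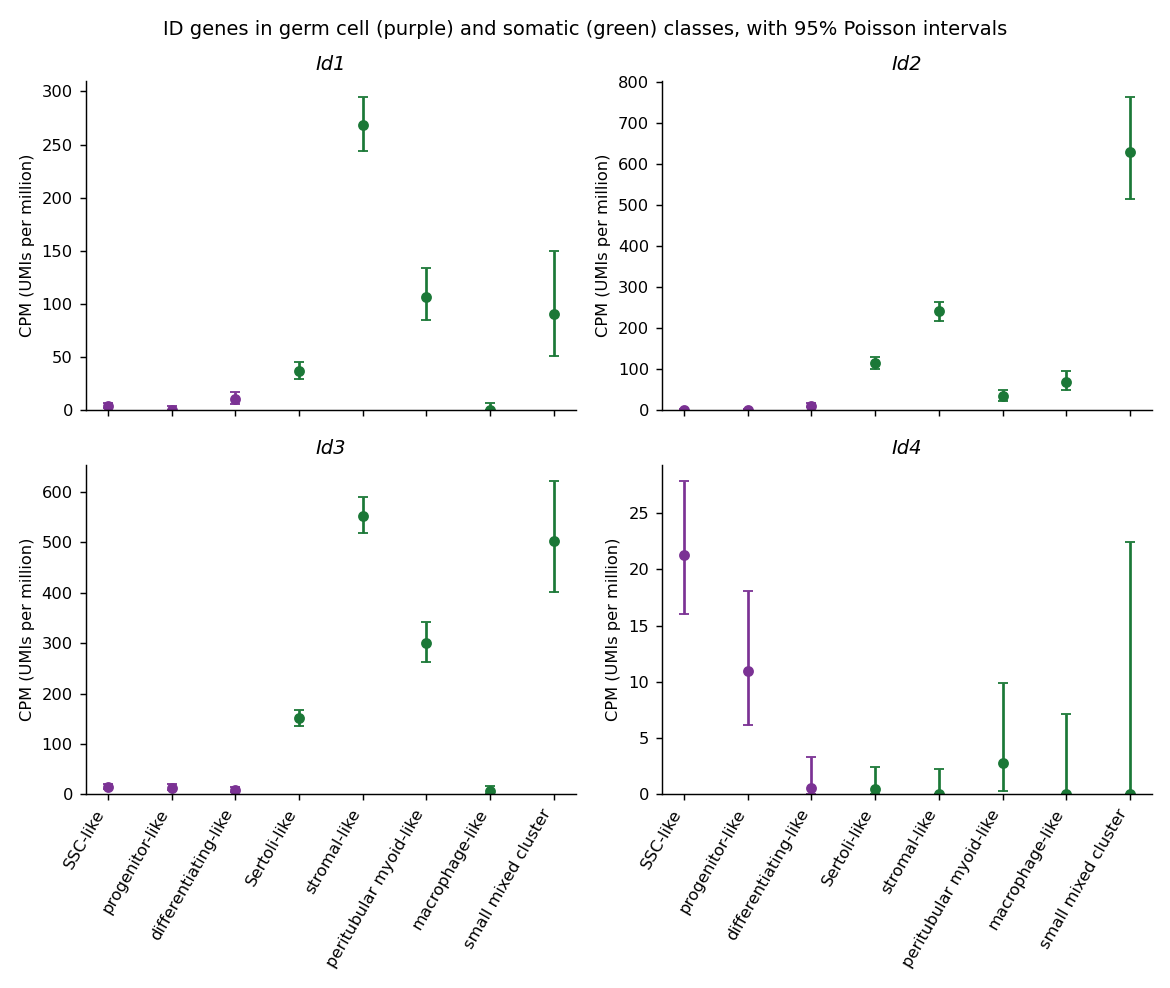
Levels of Id1, Id2, Id3 and Id4 in CPM (vertical axes, linear from 0, scaled for each gene) by cell class; points are summed levels and bars exact 95% Poisson intervals, with germ cell classes in purple and somatic classes in green. Id1 and Id3 peak in stromal-like cells at 268 and 553 CPM, Id2 in the small mixed cluster at 630 CPM, and Id4 in SSC-like cells at 21.3 CPM.

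The makeup of the ID family differed between classes accordingly. Of 1757 ID gene UMIs in stromal-like cells, 52.1% came from Id3, 25.3% from Id1 and 22.7% from Id2, and none from Id4. Sertoli-like cells had 49.9% Id3, 37.8% Id2 and 12.2% Id1 of 696 UMIs, and myoid-like cells 67.6% Id3, 24.1% Id1 and 7.72% Id2 of 324 UMIs. In all 3 of these classes Id3 was the most abundant ID gene; it exceeded the next, Id2, by 1.32-fold (1.12 to 1.55) in Sertoli-like cells and the next, Id1, by 2.06-fold (1.84 to 2.31) in stromal-like cells. Macrophage-like cells held Id2 almost alone, with 92.3% (79.1 to 98.4) of 39 UMIs. In SSC-like cells Id4 supplied 51.5% (41.4 to 61.4) of 103 ID gene UMIs and Id3 35.9% (26.7 to 46.0), and their ratio of 1.43 (0.924 to 2.24) did not leave counting error. These shares count every UMI, and the Id1, Id2 and Id3 UMIs of germ cells are set beside free RNA further on. All ID genes together summed to 41.4 CPM in SSC-like cells and to 1062 CPM in stromal-like cells.

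**Figure D3:**
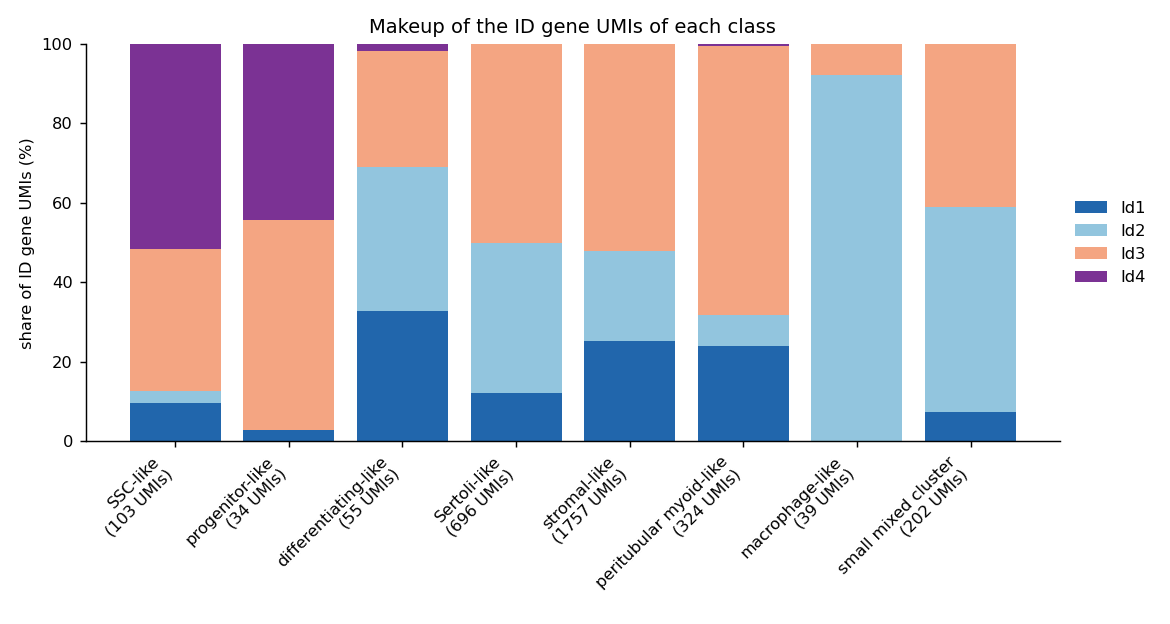
Share of the ID gene UMIs of each class (vertical axis, percent) that came from Id1, Id2, Id3 and Id4 (colors), with the number of ID gene UMIs under each class. Id4 makes up 51.5% in SSC-like cells and at most 1.82% from differentiating-like cells onward to the right.

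Germ cells were compared with somatic cells to separate the pathway genes of the lineage from those of its surroundings. Of the 10 members 1 was called higher in germ cells (Id4) and 5 lower (Bmp4, Bmpr2, Id1, Id2 and Id3), where 25.1% of 12986 genes were called higher and 28.3% lower. The median log2 ratio of the members was -1.13, beside 0.04 over all genes compared. Id4 was 22.2-fold higher in germ cells (log2 4.47, 2.87 to 6.79; 69 against 3 UMIs). Id1 was 22.2-fold lower (log2 -4.47, -5.06 to -3.93), Id2 37.1-fold lower (log2 -5.22, -5.88 to -4.62) and Id3 22.8-fold lower (log2 -4.51, -4.88 to -4.17). Bmpr2 was 4.61-fold lower (log2 -2.20, -2.70 to -1.74) and Bmp4 3.42-fold lower (log2 -1.77, -2.79 to -0.85). Bmpr1a, Smad1, Smad5 and Smad6 lay within 1.39-fold either way. Under the processing alternatives described below, the log2 ratio of Bmpr1a ran from -1.56 to -0.38 and that of Smad6 from -0.43 to 0.98. That of Smad1 ran from -0.74 to 0.55 and that of Smad5 from -0.51 to -0.28.

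Free RNA gives UMIs in cells that do not express a gene, so the germ cell levels of Id1, Id2 and Id3 were set beside those of 23 Sertoli, stromal and myoid markers. The germ-to-somatic ratio of these markers ran from 0 (Fshr) to 0.0671 (Des), with a median of 0.0180. The ratios of Id1 (0.0451), Id2 (0.0269) and Id3 (0.0438) lay inside that range, so over germ cells as a whole their levels could not be told from free RNA. In the other direction, 6 germ cell markers had somatic-to-germ ratios from 0.0186 (Dazl) to 0.0976 (Taf4b), and Id4, at 0.0450, lay inside that range as well. Immediate early genes, which rise when tissue is dissociated, summed to 222 CPM in germ cells and 1645 CPM in somatic cells (1284 CPM in stromal-like, 1633 CPM in Sertoli-like and 2683 CPM in myoid-like cells). Of 10 such genes 9 were called lower in germ cells, and their part in the ID gene levels was not tested.

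Within the germ cells the question was which members changed from undifferentiated-like to differentiating-like cells. Of 9 members with enough UMIs 1 was called higher in undifferentiated-like cells (Id4) and 2 lower (Id1 and Id2), where 8.35% of 10508 genes were called higher and 7.50% lower; Bmp4, with 13 UMIs, was too sparse. The median log2 ratio of the 9 was 0.15, beside -0.09 over all genes compared. Id4 was 29.8-fold higher (17.6 against 0.593 CPM; log2 4.90, 2.37 to 10.22). Id1 was 3.74-fold lower (2.85 against 10.7 CPM; log2 -1.90, -3.13 to -0.74) and Id2 15.2-fold lower (0.778 against 11.9 CPM, 3 against 20 UMIs; log2 -3.93, -6.32 to -2.18). Id3, at 14.3 and 9.48 CPM, had a log2 ratio of 0.59 whose interval (-0.23 to 1.49) spanned equal levels. The call of Id4 rests on a single UMI in differentiating-like cells. After thinning to 5000 UMIs the log2 ratio of Id4 was 2.29, with an Id4 UMI in 9 of 180 undifferentiated-like cells. That value has no interval here and rests on too few UMIs to show the difference at equal depth. The direction of Id2 rested on how germ cells were drawn: with 20 principal components, which put 13 cells of the small mixed cluster among the undifferentiated-like cells, its log2 ratio was 1.35, and with germ cells chosen by a UMI of Ddx4 or Dazl it was 0.38. With the hemoglobin-rich barcode kept, the largest germ cell cluster went unnamed and 56 cells were named undifferentiated-like, against 188. The log2 ratios of Id1 and Id2 were then both -0.09 and that of Id3 was -1.67, but they do not compare the same cells.

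The UMIs of Id1 and Id2 in differentiating-like cells did not come from a few cells: 18 Id1 UMIs fell in 14 cells and 20 Id2 UMIs in 18 cells, with at most 3 in a cell. At 0.0919 (interval from 0.0541) of the somatic level for Id1 and 0.0769 (from 0.0467) for Id2, they lay above the highest of the 23 somatic markers in the same cells (Des, 0.0441). In undifferentiated-like cells the ratios were 0.0246 and 0.00505, inside the marker range of 0 to 0.0772. The 23 markers held none of endothelial, macrophage or T cells, so free RNA of those cells had no reference in this range. They summed to 176 CPM in undifferentiated-like and 181 CPM in differentiating-like cells. The endothelial list summed to 63.0 and 86.5 CPM, against 94.4 CPM in somatic cells. The macrophage list summed to 51.9 and 49.8 CPM, against 2169 CPM, and the T cell list to 7.52 and 5.93 CPM, against 42.2 CPM. Immediate early genes summed to 263 CPM in undifferentiated-like and 128 CPM in differentiating-like cells. The part of these lists in the Id1 and Id2 levels was not tested. When germ cells were clustered again, the differentiating-like cells joined 2 clusters. Id1 and Id2 stood at 12.8 and 14.5 CPM in that led by Kit and Stra8. In that led by Prss50 and Ly6k they stood at 5.86 CPM each (3 UMIs each). The difference was within counting error (log2 1.12, -0.70 to 3.55, and 1.30, -0.49 to 3.72). In the clustering of all cells, 55 of the 135 differentiating-like cells lay in a cluster of low UMI count. Their median was 3996 UMIs, against 17470 in the other 80 cells. Id1 and Id2 stood at 7.33 CPM (2 UMIs) and 11.0 CPM (3 UMIs) in the 55 cells. In the other 80 they stood at 11.3 and 12.0 CPM.

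Sertoli-like and stromal-like cells were set against each other as the largest somatic classes. Of 7 members with enough UMIs, Bmpr2 was called higher in Sertoli-like cells and 4 were called lower (Id1, Id2, Id3 and Smad1), where 25.0% of 10175 genes were called higher and 12.8% lower. The median log2 ratio of the 7 was -1.07, beside 0.38 over all genes compared. Id1 was 7.25-fold lower (log2 -2.86, -3.21 to -2.52), Id3 3.66-fold (log2 -1.87, -2.05 to -1.69), Id2 2.1-fold (log2 -1.07, -1.30 to -0.84) and Smad1 8.15-fold (log2 -3.03, -4.32 to -1.93). Bmpr2 was 2.95-fold higher (log2 1.56, 0.99 to 2.18) and Bmpr1a 1.94-fold (log2 0.96, 0.51 to 1.43). Lower ID gene levels thus stood beside higher levels of Bmpr1a and Bmpr2 in Sertoli-like cells. This did not hold for the other receptor genes with enough UMIs. Acvr1 was called lower in Sertoli-like cells (3.92 against 10.9 CPM), and Acvrl1 and Acvr2a were not called.

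Peritubular myoid-like and stromal-like cells shared more. Of 8 members with enough UMIs, Bmp4 was called higher in myoid-like cells and Id1 and Id2 lower, where 5.87% of 8291 genes were called higher and 7.48% lower. The median log2 ratio of the 8 was 0.26, beside -0.08 over all genes compared. Id1 was 2.51-fold lower (log2 -1.33, -1.69 to -0.98), Id2 7.01-fold (log2 -2.81, -3.45 to -2.23) and Id3 1.84-fold (log2 -0.88, -1.10 to -0.67), the last short of 2-fold. Smad1 was 1.98-fold higher (log2 0.99, 0.35 to 1.62), and the intervals of Bmpr1a, Bmpr2, Smad5 and Smad6 spanned equal levels.

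**Figure D4:**
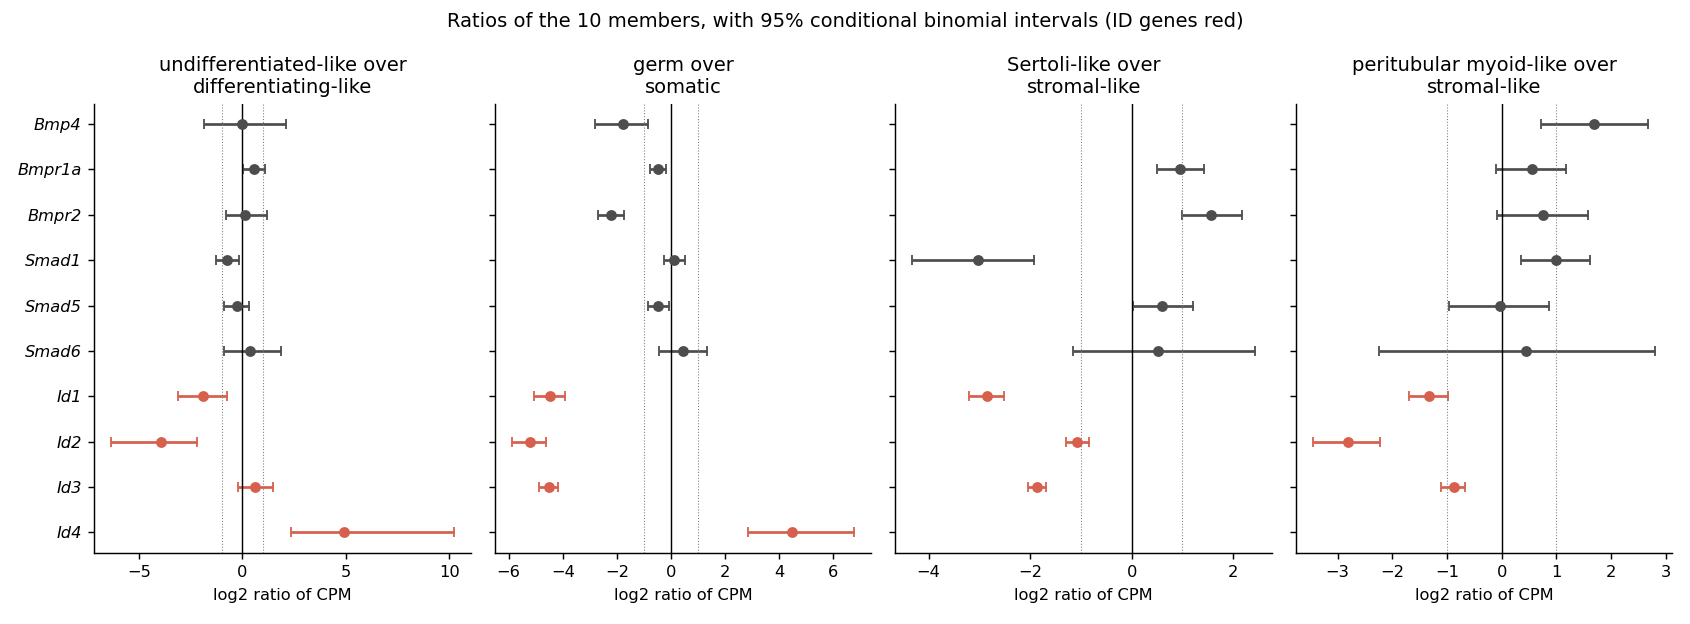
Log2 ratios of CPM (horizontal axes) of the 10 members (rows) in 4 comparisons of classes, with exact 95% conditional binomial intervals; ID genes are red, dotted lines mark 2-fold, and a member with 0 UMIs in either class has no point. Id4 lies right of 2-fold in the first 2 panels (4.90 and 4.47), and Id1 and Id2 lie left of it in all 4.

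The Sertoli-like cells formed 3 clusters, led by Amh and Serpina5 (132 cells), by Fstl3 and Cidea (78 cells) and by the mitotic genes Prc1 and Psrc1 (45 cells). Id1 was 38.9, 19.3 and 57.0 CPM in these, Id2 131, 75.9 and 130 CPM, and Id3 172, 124 and 140 CPM. All 3 ID genes were lower in the Fstl3 and Cidea cluster than in the Amh and Serpina5 cluster, by 2.01-fold for Id1 (log2 -1.01, -2.02 to -0.09), 1.72-fold for Id2 (log2 -0.78, -1.27 to -0.32) and 1.39-fold for Id3 (log2 -0.48, -0.87 to -0.10). Bmpr1a (65.3, 62.5 and 71.3 CPM) and Bmpr2 (59.2, 55.1 and 46.8 CPM) did not differ between them beyond counting error. The proliferating cluster did not differ from the Amh and Serpina5 cluster in any of the ID genes.

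Whether the ID genes were found in the same cells was asked in cells thinned to 5000 UMIs. In stromal-like cells 68.9% (59.8 to 76.9) of the 122 cells with an Id3 UMI had an Id1 UMI, against 25.5% (14.3 to 39.6) of the 51 cells without. Id2 was found in 54.1% (44.8 to 63.2) of stromal-like cells with Id3 and in 35.3% (22.4 to 49.9) of those without, and these intervals overlapped. In Sertoli-like cells Id2 was found in 46.2% with Id3 and 35.1% without, and in myoid-like cells Id1 in 29.4% with Id3 and 23.7% without, with overlapping intervals. In undifferentiated-like cells 1 of 10 cells with Id3 had Id4, too few to read.

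The small cluster of 26 cells, whose ID gene levels were among the highest, was taken apart by which markers led in each cell. Among the T cell, myoid and endothelial lists, T cell markers led in 12, myoid markers in 10, endothelial markers in 3 and none in 1. The macrophage list was not among those compared. In the 12 cells led by T cell markers it summed to 164 UMIs, beside 209 UMIs of the T cell list. Id2 gave 97 UMIs in 10 of the 12 cells led by T cell markers, up to 19 in a cell, and 1 UMI in the 10 cells led by myoid markers. Id3 gave 45 UMIs in 9 of those 10 myoid-led cells and 3 UMIs in the T cell-led cells. The myoid-led cells also held 147 UMIs of Rgs5, a pericyte gene, in 10 of 10 cells. All 3 endothelial-led cells had Id3, 35 UMIs in all, and 2 had Id1, 11 UMIs in all. The high Id2 and the high Id3 of the cluster thus belonged to different cells, and these counts come from few cells chosen by their markers.

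**Figure D5:**
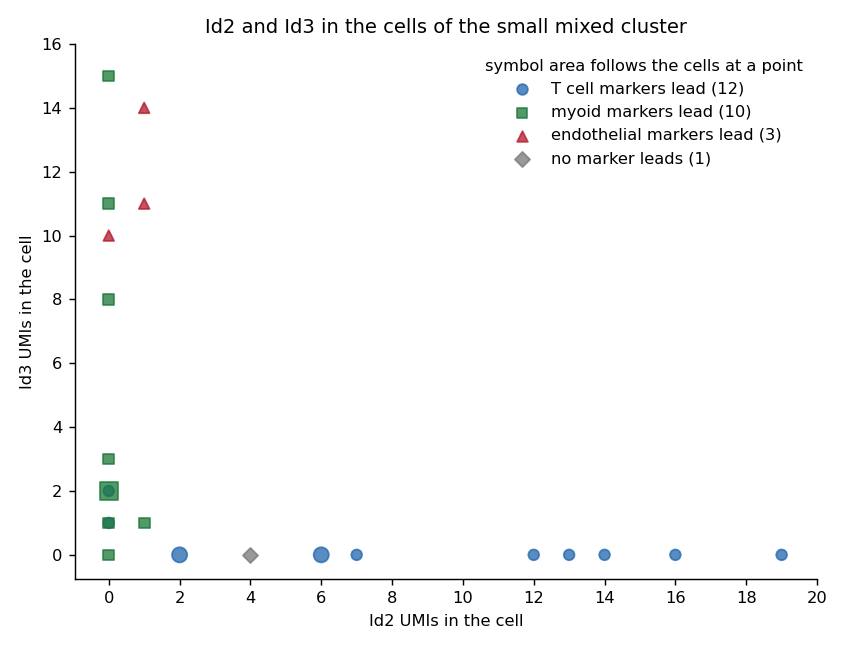
UMIs of Id2 (horizontal axis) and Id3 (vertical axis) in each of the 26 cells of the small mixed cluster. Symbols show which of the T cell, myoid and endothelial marker lists led in the cell. Symbol area follows the number of cells at a point. The 10 cells led by T cell markers that have Id2 lie along the Id2 axis, up to 19 UMIs, and the myoid-led and endothelial-led cells near the Id3 axis, up to 15 UMIs.

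Beside the members, 52 further pathway genes were listed, and 44 of them had a UMI. Between germ and somatic cells, 31 had enough UMIs; 6 were called higher in germ cells and 14 lower, with a median log2 ratio of -0.66, against 0.04 over all genes compared, of which 25.1% were called higher and 28.3% lower. The extracellular antagonists, which bind ligands, supplied 7 of the 14: of 8 compared, 7 were lower in germ cells, among them Nbl1 (5.23 against 155 CPM) and Fstl1 (9.38 against 168 CPM). The exception was Fst, encoding follistatin, at 21.3 CPM in germ cells and 2.80 CPM in somatic cells. Also higher in germ cells were the type II receptor gene Acvr2b (20.9 against 2.05 CPM), Bmp7, and the target genes Atoh8 (18.9 against 4.67 CPM), Hey1 (9.92 against 2.99 CPM) and Msx2 (23 against 0 UMIs). The coreceptor genes Eng (2.35 against 30.6 CPM) and Tgfbr3 were lower in germ cells.

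From undifferentiated-like to differentiating-like cells 5 of 23 further pathway genes were called, and all 5 were higher in undifferentiated-like cells, where 8.35% of all genes were called higher and 7.50% lower. The median log2 ratio of the 23 was -0.00. Fst fell along the stages from 37.4 CPM in SSC-like cells through 15.3 CPM in progenitor-like cells to 2.37 CPM in differentiating-like cells, in the same order as Id4. Atoh8, a BMP target, stood at 22.9, 27.0 and 6.52 CPM, Smad7 at 38.2, 18.3 and 15.4 CPM, Tcf4 at 35.8, 43.8 and 13 CPM and Fstl1 at 9.65, 15.3 and 4.15 CPM. Of the other E protein genes, Tcf3 was 120, 122 and 144 CPM and Tcf12 42.6, 46.0 and 52.1 CPM across the same stages. Hey1, another BMP target, was 8.56 CPM in undifferentiated-like and 13 CPM in differentiating-like cells, within counting error (log2 -0.61, -1.43 to 0.24).

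Among somatic classes, Smad7 set Sertoli-like cells apart, at 189 CPM against 10.3 CPM in stromal-like cells (18.3-fold, log2 4.20, 3.50 to 4.99). Smad4, the partner shared by the receptor-activated SMADs, was 2.49-fold higher in Sertoli-like cells. Stromal-like cells were higher in Nbl1 (278 against 132 CPM), Sostdc1 (27.2 against 0 CPM), Eng, Tgfbr3 and Tcf4. In all, 6 of 25 further pathway genes were higher in Sertoli-like and 10 in stromal-like cells, where 25.0% and 12.8% of all genes were; the share higher in Sertoli-like cells is thus near that of all genes. Myoid-like cells differed from stromal-like cells in 7 of 22, 4 higher and 3 lower, where 5.87% of all genes were called higher and 7.48% lower. Among them Chrdl1 (43.9 against 7.86 CPM) and Bmp7 were higher and Nbl1, Sostdc1 and the decoy receptor gene Bambi (43.9 against 104 CPM) lower.

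The pattern of each ID gene over the 8 classes was compared with those of all genes with at least 100 UMIs, by Pearson's r of log2(CPM + 10). This is a description of 8 points from 1 library. Among the points is the small mixed cluster, whose high Id2 and high Id3 came from different cells. Id1 and Id3 were most alike within the family (r = 0.96), followed by Id2 and Id3 (0.77) and Id1 and Id2 (0.70), while Id4 ran against Id1 (-0.49), Id2 (-0.75) and Id3 (-0.44). The genes most like Id4 were Tmem132c (0.99), Foxc2 (0.97) and Egr2 (0.97), with 39.0, 22.6 and 2.37 CPM of Foxc2 over the stages from SSC-like to differentiating-like cells. Those most like Id1 were Btd, Gpx7 and Bace2 (0.99 each), those most like Id3 were Chpf, Pcolce and Tcaf1 (0.99 each), and those most like Id2 were Clk4 (0.97), Rapgef1 and Slc50a1 (0.96 each).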

How the data were processed

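The authors aligned the reads of the pooled wild-type library with Cell Ranger 2.1.0 to mm10 and deposited UMI counts per gene and barcode, without normalization. Here a barcode was kept if it had 500 or more genes, a mitochondrial share under 10%, no doublet call (scrublet in scanpy 1.11.5, expected rate 0.01; 4 calls) and under 10% hemoglobin UMIs. The hemoglobin limit was added after seeing the data and removed 1 further barcode, with 10102 hemoglobin UMIs of 12196. Cells were clustered with Seurat 5.3.0 (14 principal components, resolution 0.5), after leaving the pathway genes out of the variable genes, and germ cells were clustered again. Clusters were named by marker lists; 1 listed marker symbol was not found. Class sums were compared by ratios with exact conditional binomial intervals, checked on simulated counts. Cells are not replicates, so no p-value was computed. Named are the members, pathway genes with at least 50 CPM in a class or past 2-fold, and the 3 genes most like each ID gene; Rgs5 and ligand genes below these limits were added after their values were seen. The members and lists were chosen with earlier results of these data known. Positions are from the GENCODE annotation of GRCm38, promoters from RefSeq.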

Additional observations from a re-analysis of the deposited data

How the results depend on the processing

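The ratios of the 10 members were recomputed under 19 alternatives, of which keeping the hemoglobin-rich barcode, leaving out the germ cells of low UMI count and leaving out the small mixed cluster were chosen after seeing the data. A ratio whose interval left out equal levels was counted as changing direction where its sign turned, and every other value by whether it lay inside that interval, so that signs of ratios not told apart from equal levels also turned among the rest. Some alternatives left the cells compared as they were, so that their values inside the interval are no test. Changing the limit on genes per cell kept 919 cells, with 323 germ, 188 undifferentiated-like and 135 differentiating-like cells, as before. Keeping doublet calls left these germ cell numbers unchanged. Leaving out the small mixed cluster, which is somatic, took no cell from the ratios between germ cell stages. The counts that follow include such values. For the ID genes 125 values lay inside, 13 outside and 2 changed direction. For the other members the numbers were 203, 12 and 1. Among these, the germ-to-somatic log2 ratio of Bmpr1a ran from -1.56 to -0.38. Between the germ cell stages the log2 ratio ran from -1.72 to -0.14 for Smad5 and from -1.35 to 0.71 for Bmpr2. The log2 ratio of undifferentiated-like over differentiating-like cells for Id2 changed direction to 1.35 with 20 principal components, where 13 cells of the small mixed cluster joined the undifferentiated-like cells, and to 0.38 with germ cells chosen by a UMI of Ddx4 or Dazl, where 7 did. With the hemoglobin-rich barcode kept, the largest germ cell cluster went unnamed and 137 germ cells were left. Of these, 56 were named undifferentiated-like, against 188 with that barcode removed, and the ratio of Id4 could not be computed. The ratio under the same names was then -0.09 for Id1, -0.09 for Id2, -1.67 for Id3 and -2.01 for Bmpr1a, which changed direction. These ratios do not compare the same cells as before. For Id4 the log2 ratio between the germ cell stages was 2.29 in thinned cells, where 9 of 180 undifferentiated-like cells had an Id4 UMI. The germ-to-somatic log2 ratio of Id1 was -2.60 with germ cells by Ddx4 or Dazl and -3.34 with the hemoglobin-rich barcode. That of Id2 was -4.47 with a mitochondrial limit of 5%, -2.64 with 20 principal components, -2.31 by Ddx4 or Dazl and -3.75 with the hemoglobin-rich barcode. That of Id3 was -6.57 with the limit of 5%, -2.90 by Ddx4 or Dazl and -4.91 as a mean of per-cell CPM. The cause was not tested where none is given. Genes past 2-fold numbered 1665 between germ cell stages at 20 UMIs and 1070 at 50 UMIs, and 1107 and 640 between myoid-like and stromal-like cells. A limit of 5% or a resolution of 0.3 left no undifferentiated-like class, and 24 values could not be computed in all. The limit of 5% left no differentiating-like class either. It kept 67 germ cells, against 323, and 374 somatic cells, against 596, so the germ-to-somatic ratios under it rest on those 67 cells. No paired analysis was possible because every cell came from a lone library. Depth limited Bmp4, Smad6 and Id4, with 48 to 72 UMIs each.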

Other observations

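Among the stromal-like cells, 10 held at least 5 UMIs of Leydig cell markers (Star, Cyp17a1, Cyp11a1, Hsd3b1, Insl3 and Lhcgr) and 158 held none; 19 lay between. In the Leydig-marker cells Id1 stood at 127 CPM (74.1 to 204) and Id3 at 187 CPM (121 to 276), against 285 CPM (257 to 315) and 566 CPM (527 to 608) in the cells without, log2 ratios of -1.16 (-1.96 to -0.46) and -1.60 (-2.23 to -1.02). Id2 was 224 CPM against 227 CPM (log2 -0.02, -0.61 to 0.52). The 19 cells between held Id1 at 252 CPM (183 to 338), Id2 at 355 CPM and Id3 at 733 CPM. The Id1 interval of the cells between holds the level of the cells without, so no ordered fall of Id1 is shown. Id2 and Id3 stood highest in the cells between. The Sertoli list summed to 1392 CPM in the Leydig-marker cells and 97.3 CPM in those without, and the stromal list to 1242 and 10566 CPM; their part in the difference was not tested. The division was made after the ID gene levels had been seen and rests on 10 cells.

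The 51 barcodes left out held 15 UMIs of Id1, 18 of Id2, 38 of Id3 and 3 of Id4 among 456239 UMIs.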
